A study of Homo sapiens with 15 samples.

Results

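Genes of the synaptic vesicle cycle and of regulated exocytosis were followed for 72 h after induction of a hairpin against CDK2 in neuroblastoma cells. The set holds 43 genes of 19775 that the array annotation names, chosen by symbol with earlier results of these data known. It comprises 13 synaptotagmins, 3 synapsins, 5 SV2 and synaptophysin-type membrane proteins, 7 genes of the SNARE machinery, 4 RAB3 GTPases, 8 priming and active zone genes and 3 endocytosis genes. Each is represented by at least 1 probe set naming that gene alone, 99 probe sets of 41091 in all, and no probe set naming several genes holds a member.

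Neurons store transmitter in small vesicles that dock at the active zone, a protein scaffold on the presynaptic membrane built by bassoon, piccolo and RIM proteins. Munc13 and CAPS proteins prime the docked vesicle, the SNARE proteins VAMP2, syntaxin-1A and SNAP-25 draw the membranes together, and synaptotagmins couple fusion to calcium. NSF then takes the SNARE complexes apart, and clathrin adaptors, amphiphysin and dynamin recover the membrane. Chromaffin cells and the sympathetic neuroblasts from which neuroblastoma arises use much of the same machinery to release catecholamines and peptides from dense-core granules.

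The cells were IMR32, an established human neuroblastoma line with amplified MYCN. All groups were the single selected clone IMR32-pcDNA6-CDK2sh, which carries a tetracycline repressor under the constitutive CMV promoter and a pTER vector with the CDK2 hairpin, and was selected with blasticidin and zeocin. Doxycycline at 100 ng/ml relieved the repression. RNA was taken at 5 times, 0, 8, 24, 48 and 72, and hybridised to 15 Affymetrix U133 Plus 2.0 arrays, 3 per time. Time has no unit in the labels, and hours are used here from knowledge of the study. Neither untreated later cultures nor a second hairpin run alongside, so time in culture, doxycycline and loss of CDK2 cannot be told apart. The labels do not say that the 3 arrays of a time are separate cultures, so the p-values rest on array-to-array spread alone, which may be technical.

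Values are MAS5 signals, a linear hybridisation intensity per probe set scaled to the same trimmed mean on every array. Changes are differences of log2(signal + 16), given ± SE, which understates the change of dim genes. They were tested for all 11774 genes past a brightness filter in limma, with Benjamini-Hochberg adjustment, and "rose" and "fell" below mean an adjusted p under 0.05. CDK2 itself served as the check of the labels. It gave 245.5, 236 and 213.7 at 0 h, 100.8, 92.6 and 90.2 at 8 h and 30, 40 and 20.2 at 72 h, a log2 change of -2.45 ± 0.14 at 72 h with all later arrays below those at 0 h. Of 11 noradrenergic neuroblastoma markers on the array 9 passed the filter, GATA3 at a signal of 3080.2 or more on every array, and 7 of the 9 rose and none fell at 72 h (ISL1 by 1.74, HAND2 by 1.08), while TH (0.5 to 9.5) and STMN2 (1.3 to 46.9) did not pass the filter. None of 6 immune and 5 Schwann or glial markers passed, with PTPRC at 11.5 or less and S100B at 9.5 or less on every array. Of 5 endothelial and 5 epithelial markers 1 each passed, PECAM1 (8.6 to 33.1) and KRT8 (12.5 to 28.2), and neither was called at 72 h. Of 12 fibroblast and mesenchymal markers 8 passed, and at 72 h 4 rose and 2 fell, with a median change of 0.32. LUM rose from a mean signal of 13.7 to 346.3, FN1 from 135.7 to 247.9, PDGFRB from 42.5 to 77.4 and THY1 from 97.5 to 155.6. VIM fell from 3979 to 3064. PDGFRA went from 838.5 to 679.2, TWIST1 from 1323 to 1236 and COL1A1 from 289.3 to 300.9. COL1A2, COL3A1, DCN and PRRX1 stayed below the filter. Their summed signal, of which VIM is the greatest part, ran from 6387.5 to 7260.8 at 0 h and from 5957.8 to 6267.3 at 72 h. The part of these markers in the results was not tested.

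Across the set, rises outnumbered falls from 24 h on, and all tested priming, active zone and RAB3 genes were higher at 72 h. Of the 43 members 36 passed the filter. For 2 of these, SV2B and BSN, the mean at 0 h was below it, so they are counted only because their later arrays were brighter. RIMS1 and CADPS2, of the priming and active zone genes, did not pass and are not in that count. No member passed the threshold at 8 h, against 0.0934% of all tested genes called higher and 0.357% called lower. At 8 h 4 members had an unadjusted p under 0.05 (SYT2, SV2A, SV2B and STX1A, all upward). The share of all genes at that unadjusted cut was not counted, so those 4 have no background beside them. At 24 h 9 members were higher and none lower, against 7.74% higher and 5.72% lower among all genes. By 48 h the calls were 19 higher and 2 lower (26.3% and 17.7% of all genes). At 72 h 21 rose and 5 fell (32.8% and 22.7% of all genes). The moderated F test over the 4 later times called 27 of the 36 members and 57% of all genes. RNA came from whole cultures, so a larger share of expressing cells and more RNA per cell cannot be told apart.

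Most rises against 0 h were called again at later times. All 9 members that had risen at 24 h (SYT1, SYT4, SYT13, SV2A, SV2B, VAMP2, CPLX1, UNC13B and PCLO) were also higher at 48 and 72 h. Of the 19 higher at 48 h 18 were higher at 72 h, SYPL1 being the exception. The share of all genes called again in this way was not counted, so these counts have no background beside them. A repeated call does not mean a steady level, and SV2A fell between 24 and 48 h. By 72 h 12 members had risen by at least 1 on the log2 scale and none had fallen that far, against 5.34% and 4.95% of all genes. At 48 h only SYT4 had risen by that much, against 2.37% of all genes, and no member had fallen by 1 (2.51% of all genes). The median change of the 36 members was 0.08, 0.14, 0.29 and 0.70 in time order, where the medians over all tested genes were 0.02, 0.05, 0.08 and 0.10. The comparisons with 0 h share the same 3 arrays at 0 h.

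Between successive times, 3 members rose and 1 fell from 8 to 24 h (2.54% and 3.24% of all genes), 12 rose and 3 fell from 24 to 48 h (12.4% and 10.5%), and 6 rose and 2 fell from 48 to 72 h (4.54% and 6.14%). The 24 to 48 h interval thus held the most called members, as it held the most called genes of all. The shares of all genes called were 5.78% from 8 to 24 h, 22.9% from 24 to 48 h and 10.7% from 48 to 72 h. The step from 8 to 24 h is also shorter than the others. Several counts moved when 1 array was left out. That at 24 h was 4 without replicate 1 at 0 h or replicate 1 at 24 h and 5 without replicate 2 at 0 h, replicate 3 at 0 h or replicate 2 at 24 h. That for 8 to 24 h was 1 without replicate 2 at 8 h or replicate 3 at 24 h and 2 without replicate 3 at 8 h or replicate 1 at 24 h. That for 48 to 72 h was 4 without replicate 2 at 48 h and 5 without replicate 1 at 72 h.

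Median array signal drifted upward with time, from 15 on the lowest array at 8 h to 20.5 on the highest at 72 h. Centring each array on its median moved the median change of all genes at 72 h from 0.10 to -0.01 and the shares called higher at 24, 48 and 72 h from 7.74%, 26.3% and 32.8% to 3.88%, 17.6% and 23.2%. Among the members it left 4 higher and 0 lower at 24 h, 14 higher and 4 lower at 48 h and 20 higher and 7 lower at 72 h. No called member changed direction under it. The share of all called genes that was higher in the steps also moved, to 1.21% of genes higher among 4.18% called for 8 to 24 h, 8.09% among 18.8% for 24 to 48 h and 2.79% among 8.7% for 48 to 72 h. For the members this gave 1 higher and 1 lower in the first of these steps.

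**Figure D1:**
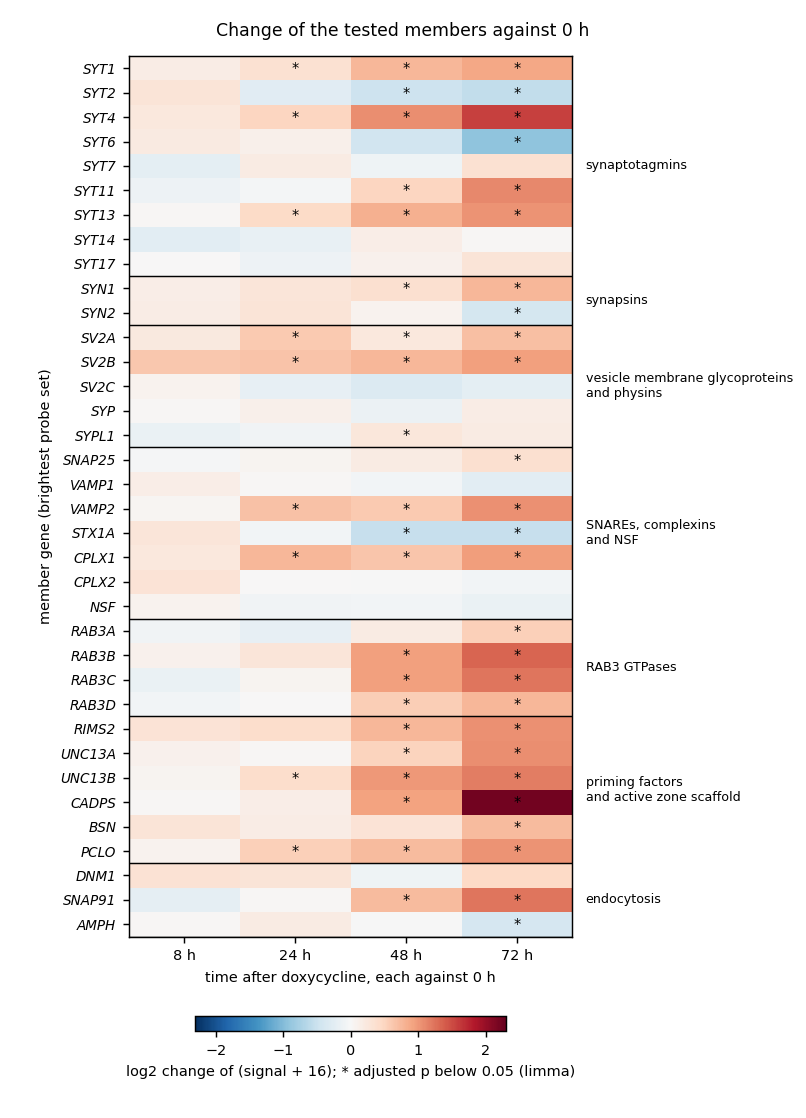
Log2 change of each tested member against 0 h at 8, 24, 48 and 72 h, for the brightest probe set of the gene (36 genes, 3 arrays per time). Colour runs from blue (lower) over white (no change) to red (higher), asterisks mark an adjusted p under 0.05, and lines separate the roles. Red fills the RAB3 and priming rows at 48 and 72 h, CADPS is darkest at 2.21, and SYT2, SYT6, SYN2, STX1A and AMPH are the blue rows with an asterisk at 72 h.

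Synaptotagmins, the C2-domain proteins that include the calcium sensors of fusion, split in direction. Of 13 genes 9 were tested, and at 72 h 4 of them rose (SYT1, SYT4, SYT11 and SYT13) and 2 fell (SYT2 and SYT6). These are 44.4% and 22.2%, beside 32.8% and 22.7% of all genes, so the falling share was near that of all genes. The median change of the 9 was 0.35. SYT7, SYT14 and SYT17 passed the threshold at no time.

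SYT4, a synaptotagmin of dense-core and other vesicles whose first C2 domain does not bind calcium, changed most in this family. Its signals were 56.5, 75.4 and 93 at 0 h, 91.3, 79.5 and 99.7 at 8 h, 119.3, 105.6 and 105.4 at 24 h, 161.9, 166.3 and 190.2 at 48 h and 255, 253.3 and 239.6 at 72 h. Every array at 48 and 72 h lay above all at 0 h, and those at 72 h above all at 48 h. The change was 0.49 ± 0.13 (adjusted p = 0.0167) at 24 h, 1.07 ± 0.13 (adjusted p = 2.86e-06) at 48 h and 1.56 ± 0.13 (adjusted p = 1.22e-08) at 72 h. Its call at 24 h was lost without 0 h replicate 1 or 24 h replicate 1 (adjusted p = 0.0701 to 0.0962), and that from 48 to 72 h, 0.49 ± 0.13 (adjusted p = 0.0191), was lost without 48 h replicates 1 or 2 or 72 h replicate 1 (adjusted p = 0.0551 to 0.0765).

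SYT11, a relative of SYT4 that also lacks calcium binding, gave 553.5, 564.5 and 672 at 0 h, 483.8, 498.6 and 668.5 at 8 h, 544.3, 561.8 and 635.8 at 24 h, 792, 781.8 and 973.5 at 48 h and 1118.9, 1155.8 and 1671.3 at 72 h. Arrays up to 24 h overlapped, then climbed, with replicate 3 the highest array of all 5 times. SYT11 rose by 0.50 ± 0.14 (adjusted p = 0.00942) at 48 h and 1.10 ± 0.14 (adjusted p = 4.21e-06) at 72 h. The call at 48 h was lost without 48 h replicate 3 (adjusted p = 0.055). The 2 other SYT11 probe sets rose by 1.17 and 1.25 at 72 h.

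SYT13, a member without calcium-binding residues, read 88.6, 76.1 and 77.8 at 0 h, 108, 84.7 and 61.8 at 8 h, 122, 122.1 and 102.5 at 24 h, 153.1, 156.1 and 155.6 at 48 h and 175.7, 175.8 and 196.6 at 72 h. From 24 h on no array overlapped those at 0 h. The changes were 0.44 ± 0.13 (adjusted p = 0.0362) at 24 h, 0.82 ± 0.13 (adjusted p = 8.16e-05) at 48 h and 1.04 ± 0.13 (adjusted p = 3.58e-06) at 72 h. The earliest of these was lost without 0 h replicates 1, 2 or 3 or 24 h replicates 1 or 2 (adjusted p = 0.0516 to 0.114). A second SYT13 probe set moved by only 0.19 at 72 h and was not called there.

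SYT1, the fast calcium sensor of synaptic vesicle fusion, was measured at 1026.6, 1050.3 and 927.3 at 0 h, 1069.5, 1108.5 and 1191.8 at 8 h, 1295.1, 1183.8 and 1367.2 at 24 h, 1623.5, 1716.5 and 1810.7 at 48 h and 1720.7, 1812.5 and 2078.5 at 72 h. The arrays of each later time lay above all 3 at 0 h. SYT1 rose by 0.35 ± 0.08 (adjusted p = 0.00872), 0.77 ± 0.08 (adjusted p = 8.6e-07) and 0.89 ± 0.08 (adjusted p = 6.51e-08) at 24, 48 and 72 h. The 24 h call was lost without 0 h replicate 3 (adjusted p = 0.0525), and the other probe set of the gene gave 0.44 at 72 h, which was not called.

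SYT2, the fast sensor closest to SYT1, went the other way with 72, 77.8 and 67.7 at 0 h, 88, 102 and 89.3 at 8 h, 68.5, 55.9 and 50.2 at 24 h, 47.9, 46.9 and 48.3 at 48 h and 46.7, 32.8 and 53.8 at 72 h. All arrays at 8 h were above those at 0 h and all at 48 and 72 h below them. SYT2 fell, with changes of -0.47 ± 0.14 (adjusted p = 0.0087) at 48 h and -0.56 ± 0.14 (adjusted p = 0.00182) at 72 h, after 0.30 ± 0.14 (adjusted p = 0.504) at 8 h, which was not called. The step from 8 to 24 h was -0.56 ± 0.14 (adjusted p = 0.02), a call lost without 8 h replicate 2 or 24 h replicates 2 or 3 (adjusted p = 0.0619 to 0.0941).

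SYT6 showed the greatest fall of any member. Its arrays gave 35.7, 41.4 and 56.8 at 0 h, 45.3, 42.8 and 76.5 at 8 h, 43, 53.2 and 51.1 at 24 h, 26.5, 31.7 and 25.9 at 48 h and 21.4, 11.1 and 15.3 at 72 h. Replicate 3 was the highest array at 0 and 8 h, and all arrays at 48 and 72 h lay below every array at 0 h. The change was -0.45 ± 0.18 (adjusted p = 0.0517) at 48 h, short of the threshold (adjusted p = 0.0416 with replicate number as a block), and -0.92 ± 0.18 (adjusted p = 0.000301) at 72 h, where it passed.

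Among the synaptotagmins that were not called, SYT7, the slow high-affinity sensor, changed by 0.35 (95% interval -0.04 to 0.75, adjusted p = 0.123) at 72 h. SYT17 changed by 0.29 (95% interval -0.01 to 0.58, adjusted p = 0.0896) and SYT14 by 0.03 (95% interval -0.26 to 0.32, adjusted p = 0.867). Mean signals went from 25 ± 4.5 to 36.7 ± 8.96 for SYT7, from 46.6 ± 3.23 to 60.5 ± 1.58 for SYT17 and from 100.2 ± 26.5 to 101 ± 9.54 for SYT14 (SD, n = 3). The SYT7 and SYT14 arrays at 72 h overlapped those at 0 h, while the 3 SYT17 arrays lay above them.

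The synapsins, phosphoproteins that tether vesicles to one another in the reserve pool, also divided. SYN1 rose and SYN2 fell at 72 h, where 32.8% and 22.7% of all genes did, and SYN3 was below the filter.

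SYN1 read 71.8, 61 and 70.1 at 0 h, 77.5, 88.8 and 66.4 at 8 h, 94.3, 73.5 and 91 at 24 h, 90.4, 100.2 and 84.3 at 48 h and 137.4, 117.8 and 120.6 at 72 h. Arrays at 24, 48 and 72 h all exceeded those at 0 h, and the 72 h arrays exceeded all others. The change was 0.36 ± 0.12 (adjusted p = 0.021) at 48 h and 0.76 ± 0.12 (adjusted p = 4.01e-05) at 72 h. The call at 48 h was lost without 0 h replicate 2 or 48 h replicate 2 (adjusted p = 0.0893 to 0.0897). The other SYN1 probe set gave 0.20 at 72 h and was not called.

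SYN2 read 292.5, 268.9 and 261.8 at 0 h, 260.5, 299.7 and 375.6 at 8 h, 332.1, 317.8 and 369.7 at 24 h, 289.1, 264.8 and 316 at 48 h and 180.1, 221.3 and 210.2 at 72 h. It was highest at 24 h and then declined, all 72 h arrays lying below those of the other times. The change was 0.29 ± 0.12 (adjusted p = 0.106) at 24 h, short of the threshold, and -0.40 ± 0.12 (adjusted p = 0.00646) at 72 h. The fall from 48 to 72 h was -0.48 ± 0.12 (adjusted p = 0.0128), which was lost without 48 h replicate 3 or 72 h replicate 1 (adjusted p = 0.0524 to 0.0595). The 4 other SYN2 probe sets ranged from -0.99 to -0.01 at 72 h, with 1 called lower, and 2 of them were called higher at both 24 and 48 h, so the probe sets of this gene disagree on the course before 72 h.

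SYN1 is a classical target of REST, the repressor that keeps neuronal genes silent outside neurons by binding the RE1 element. RefSeq promoters (GRCh38.p14, the 250 bases before each annotated start) were found for 34 members, 52 promoters in all, and searched on both strands. The left part of RE1, TTCAGCACC, stood in 1 of the 52 member promoters, that of SYN1, and in 0.288% of 35116 promoters. Its last 8 letters, TCAGCACC, stood in 6 of the 52, from 6 members, and in 1.32% of all promoters. The right part, GGACAG, was in 10 of the 52, from 9 members, and in 17.2% of all promoters. CCAAT was in 7 of the 52 and in 32% of all promoters. CACGTG was in 3 of the 52 (SYT6, SYT14 and UNC13A) and in 6.34% of all, and TGACGTCA in 1 (SYN1) and in 1.65% of all. The SYN1 promoter is shown because it alone holds both RE1 parts side by side and the cAMP response element, all in capitals. It lies on the minus strand at chrX:47619858-47620107, with the left part beginning 233, the right part 222 and TGACGTCA 159 bases before the start.
SYN1: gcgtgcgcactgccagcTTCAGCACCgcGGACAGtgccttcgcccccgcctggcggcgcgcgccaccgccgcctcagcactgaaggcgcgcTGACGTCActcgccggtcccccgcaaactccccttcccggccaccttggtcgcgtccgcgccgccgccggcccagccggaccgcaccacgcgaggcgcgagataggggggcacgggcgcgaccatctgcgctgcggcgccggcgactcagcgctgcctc

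Windows of 30 bases holding TCAGCACC (capitals) are given for 4 of these members for comparison, as the strand on which the letters read. They lie at chr18:43277554-43277583 (plus) for SYT4, chrX:47620071-47620100 (minus) for SYN1, chr15:91099537-91099566 (minus) for SV2B and chr5:76083151-76083180 (plus) for SV2C.
SYT4: cagggctgaaaTCAGCACCtgcccccctcc
SYN1: cactgccagctTCAGCACCgcggacagtgc
SV2B: actgccaaggcTCAGCACCgaaagactctt
SV2C: gcagcagcgccTCAGCACCgcgacttgccg
The letters are a description of the windows and not evidence of binding. REST itself fell at 24 h (-0.57 ± 0.10, adjusted p = 0.000683) and at 72 h (-0.55 ± 0.10, adjusted p = 0.000106), and was not called at 48 h (-0.22 ± 0.10, adjusted p = 0.0781). Of the 10 genes listed for REST and its partners 6 rose and 3 fell at 72 h (32.8% and 22.7% of all genes), among them CTDSP1 (0.64 ± 0.10, adjusted p = 3.79e-05), a phosphatase that stabilises REST, EHMT2 (0.54 ± 0.14, adjusted p = 0.00292), a histone methyltransferase, and RCOR2 (0.43 ± 0.12, adjusted p = 0.00678), a corepressor, and on the falling side HDAC2 (-0.44 ± 0.12, adjusted p = 0.00421) and SIN3A (-0.34 ± 0.11, adjusted p = 0.0119), a deacetylase and its scaffold. The counts higher and lower had been 1 and 1 at 24 h and 3 and 1 at 48 h.

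Vesicle membrane proteins rose in part. All 5 were tested, and SV2A and SV2B rose at 24, 48 and 72 h, SYPL1 rose at 48 h alone among the 4 times, and SV2C and SYP were called at none. At 72 h 40% were higher and 0% lower, beside 32.8% and 22.7% of all genes.

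SV2A, a transporter-like glycoprotein present on nearly all synaptic vesicles and the binding site of levetiracetam, had the least regular course. Its signals were 288, 314.3 and 311.8 at 0 h, 360.8, 358 and 349.9 at 8 h, 470.8, 460 and 486.3 at 24 h, 352.2, 370 and 363.4 at 48 h and 459.4, 473.3 and 574.3 at 72 h. The level went up, down and up again, with no overlap between the arrays of 24 and 48 h or of 48 and 72 h. SV2A rose by 0.61 ± 0.08 (adjusted p = 7.02e-05) at 24 h and 0.69 ± 0.08 (adjusted p = 1.43e-06) at 72 h. The fall from 24 to 48 h was -0.37 ± 0.08 (adjusted p = 0.00311), followed by a rise of 0.45 ± 0.08 (adjusted p = 0.00159) from 48 to 72 h. The net change at 48 h, 0.24 ± 0.08 (adjusted p = 0.0256), was lost without 0 h replicate 1 or 48 h replicates 2 or 3 (adjusted p = 0.0611 to 0.103) and under median centring (0.14).

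SV2B, its close relative, was dim at the start, with a 0 h mean below the filter. The arrays read 5.8, 13 and 20.4 at 0 h, 18.2, 35.4 and 31.6 at 8 h, 40.2, 29.2 and 19.4 at 24 h, 27.9, 36.7 and 32.6 at 48 h and 43.4, 42.3 and 31 at 72 h. Arrays of 48 and 72 h were all above those at 0 h, whereas at 24 h 1 array (19.4) lay below the highest at 0 h (20.4). The changes were 0.66 ± 0.21 (adjusted p = 0.0447), 0.76 ± 0.21 (adjusted p = 0.00634) and 0.94 ± 0.21 (adjusted p = 0.00093) at 24, 48 and 72 h. The 24 h call was lost without 0 h replicates 1 or 2, 24 h replicates 1 or 2, 48 h replicates 1, 2 or 3 or 72 h replicates 1 or 2 (adjusted p = 0.051 to 0.193).

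SV2C, the third paralogue, changed by -0.32 (95% interval -0.62 to -0.01, adjusted p = 0.0837) at 48 h and -0.23 (95% interval -0.53 to 0.07, adjusted p = 0.188) at 72 h. Both of its other probe sets were negative at 72 h, -0.41 and -0.29, and 1 of them was called lower. SYP, synaptophysin, the abundant vesicle protein used as a pathology marker, went from a mean signal of 40.3 ± 5.99 to 47.5 ± 10.4 (SD, n = 3), a change of 0.17 (95% interval -0.22 to 0.55, adjusted p = 0.463) with overlapping arrays. SYPL1, the synaptophysin relative found outside neurons as well, rose by 0.26 ± 0.09 (adjusted p = 0.0214) at 48 h. That call was lost without 0 h replicate 2 or 48 h replicate 3 (adjusted p = 0.12 to 0.132), and at 72 h the change was 0.18 (95% interval -0.00 to 0.36, adjusted p = 0.0861).

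The SNARE group did not move as a whole. All 7 genes were tested, and at 72 h VAMP2, CPLX1 and SNAP25 rose, STX1A fell, and VAMP1, CPLX2 and NSF were not called. The shares higher and lower were 42.9% and 14.3%, beside 32.8% and 22.7% of all genes. The group's median was -0.06, below the 0.10 of all genes.

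VAMP2, the main vesicle SNARE of neurons, read 45.8, 43.4 and 32.4 at 0 h, 52.1, 42.6 and 32.6 at 8 h, 71.6, 57.2 and 96 at 24 h, 72.4, 64.6 and 72.6 at 48 h and 104.2, 110.9 and 86.7 at 72 h. No overlap remained with 0 h from 24 h on, replicate 3 being the highest array at 24 h and the lowest at 72 h. VAMP2 rose by 0.67 ± 0.16 (adjusted p = 0.00991) at 24 h, 0.61 ± 0.16 (adjusted p = 0.00512) at 48 h and 1.05 ± 0.16 (adjusted p = 2.66e-05) at 72 h. The first was lost without 0 h replicate 3 or 24 h replicate 3 (adjusted p = 0.0562 to 0.0632). Both other probe sets were called higher at 72 h, at 0.74 and 0.81.

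CPLX1, complexin-1, which clamps and then promotes SNARE-driven fusion, had the widest error of the tested members. Its arrays gave 82.3, 97.4 and 65 at 0 h, 103.3, 127.5 and 70.9 at 8 h, 144.9, 127.3 and 175.3 at 24 h, 158.4, 151.5 and 99.6 at 48 h and 257.4, 180.3 and 106.5 at 72 h. At 72 h the replicates ran from 106.5 to 257.4, with the lowest still above the highest at 0 h, 97.4. The changes were 0.76 ± 0.24 (adjusted p = 0.0441), 0.63 ± 0.24 (adjusted p = 0.041) and 0.95 ± 0.24 (adjusted p = 0.0027) at 24, 48 and 72 h. The call at 24 h was lost without 0 h replicates 1, 2 or 3, 8 h replicate 1, 24 h replicates 1, 2 or 3, 48 h replicate 2 or 72 h replicate 2 (adjusted p = 0.0517 to 0.166), and that at 48 h without 0 h replicates 1 or 3, 24 h replicate 1 or 48 h replicates 1 or 2 (adjusted p = 0.0503 to 0.15). The paralogue CPLX2 changed by -0.06 (95% interval -0.44 to 0.31, adjusted p = 0.783) at 72 h.

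SNAP25, the palmitoylated target SNARE, rose late, by 0.37 ± 0.11 (adjusted p = 0.01) at 72 h, from a mean signal of 218 ± 20.6 to 286 ± 20.5 (SD, n = 3). The call was lost without 0 h replicate 1 (adjusted p = 0.0581) and under median centring (0.25), and its 2 other probe sets, at 0.18 and 0.25, were not called. STX1A, syntaxin-1A, the transmembrane target SNARE, fell from a mean of 82.9 ± 5.74 before induction to 52.4 ± 3.93 and then 52.7 ± 7.31 at the last 2 times (SD, n = 3), changes of -0.53 ± 0.13 (adjusted p = 0.00286) and -0.53 ± 0.13 (adjusted p = 0.00218). All 6 arrays at 48 and 72 h lay below the 3 at 0 h. VAMP1 changed by -0.24 (95% interval -0.53 to 0.05, adjusted p = 0.149) at 72 h. NSF, the ATPase that disassembles SNARE complexes, held between 935.2 and 1228.8 on all 15 arrays and changed by -0.15 (95% interval -0.31 to 0.01, adjusted p = 0.112), and the other NSF probe set gave 0.24. Median centring called VAMP1 and NSF lower at 72 h, at -0.36 and -0.27, and quantile normalisation called VAMP1 lower at -0.38.

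RAB3 GTPases recruit vesicles to the active zone by binding RIM proteins. All 4 rose at 72 h, where 32.8% of all genes did, and RAB3B, RAB3C and RAB3D already at 48 h. These 7 calls held in every alternative in which the gene was tested, except that only RAB3B and RAB3C at 72 h reached a change of 1. With all probe sets tested singly, the one with the smallest adjusted p stood for the gene. That alternative could therefore not end a call through a discordant probe set. The median of the 4 was 0.75 at 48 h and 0.998 at 72 h.

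RAB3B, found in endocrine cells as well as neurons, read 41.2, 34.5 and 28.5 at 0 h, 44.2, 39.5 and 31.4 at 8 h, 49.8, 43.4 and 43 at 24 h, 80.3, 75 and 90.2 at 48 h and 108.5, 104.5 and 123.7 at 72 h. The 48 and 72 h arrays formed 2 levels, each above the one before. RAB3B rose by 0.95 ± 0.13 (adjusted p = 1.31e-05) at 48 h and 1.34 ± 0.13 (adjusted p = 1.1e-07) at 72 h. Its 3 other probe sets gave 0.63 to 1.05 at 72 h, 2 of them called higher.

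RAB3C read 46.9, 39.7 and 52.3 at 0 h, 56.3, 51.6 and 19.3 at 8 h, 50.4, 42.3 and 54.9 at 24 h, 98.6, 100.6 and 109.4 at 48 h and 137.1, 144.6 and 110.2 at 72 h. At 8 h replicate 3 stood far below the other arrays of that time, and from 48 h all arrays were above the earlier ones. RAB3C rose by 0.94 ± 0.20 (adjusted p = 0.000967) and 1.23 ± 0.20 (adjusted p = 4.49e-05) at 48 and 72 h. Of 2 other probe sets 1 was called higher at 72 h (0.69) and the other gave -0.13.

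RAB3D, associated with secretory granules of exocrine and endocrine cells, had means of 68.8 ± 7.16 before induction, then 110.0 ± 5.66 and 128 ± 4.77 at the last 2 times (SD, n = 3). It rose by 0.57 ± 0.12 (adjusted p = 0.000766) and 0.76 ± 0.12 (adjusted p = 2.94e-05), though its other probe set moved by 0.05 at 72 h and was not called. RAB3A, the isoform predominant in brain, went from 41.4 ± 4.6 to 67.9 ± 5.63 and rose at 72 h, by 0.55 ± 0.15 (adjusted p = 0.00559). At 48 h its change was 0.20 (95% interval -0.13 to 0.52, adjusted p = 0.321).

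Priming factors and active zone scaffolds rose as a group. All 6 tested genes were higher at 72 h, where 32.8% of all genes were, and 5 of them by at least 1 (5.34% of all genes). Those 6 calls held in every alternative in which the gene was tested, except that BSN did not reach a change of 1. Probe sets tested singly were again represented by the smallest adjusted p of the gene. The median change was 0.74 at 48 h and 1.06 at 72 h. RIMS1 and CADPS2 were below the filter and are not counted, while BSN passed it only through its later arrays.

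CADPS, CAPS-1, which primes dense-core granules and synaptic vesicles for release, changed more than any other member. Its arrays read 35.3, 28.1 and 31.4 at 0 h, 26.2, 44.1 and 29.3 at 8 h, 35.6, 33.9 and 41 at 24 h, 66.3, 68.7 and 88.2 at 48 h and 213.5, 203.3 and 196.6 at 72 h. Arrays at 8 and 24 h overlapped those at 0 h, the 48 h arrays lay above all earlier ones, and the 72 h arrays above all at 48 h. CADPS rose by 0.92 ± 0.14 (adjusted p = 3.93e-05) at 48 h, by 1.29 ± 0.14 (adjusted p = 7.64e-06) from 48 to 72 h and by 2.21 ± 0.14 (adjusted p = 3.51e-10) in all. It was the only member to change by 1 or more within a single step. The 2 other CADPS probe sets were both called higher at 72 h, at 1.21 and 1.29. Its promoter, at chr3:62875417-62875666 on the minus strand of GRCh38.p14, is printed as that of the member with the greatest change, the 2 CCAAT boxes (1 reversed, ATTGG) in capitals, beginning 130 and 31 bases before the start.
CADPS: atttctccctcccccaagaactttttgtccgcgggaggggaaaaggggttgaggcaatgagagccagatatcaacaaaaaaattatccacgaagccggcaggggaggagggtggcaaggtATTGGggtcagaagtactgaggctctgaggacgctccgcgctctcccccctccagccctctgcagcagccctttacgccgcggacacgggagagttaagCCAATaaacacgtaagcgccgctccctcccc

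UNC13B, Munc13-2, which opens syntaxin for SNARE assembly, was among the earliest to rise. The signals were 173.1, 167.9 and 184.4 at 0 h, 186.9, 182.9 and 177.3 at 8 h, 252.3, 205.2 and 261.2 at 24 h, 336.1, 362.8 and 395.5 at 48 h and 429.1, 389.2 and 422.4 at 72 h. Arrays at 24 h already cleared those at 0 h, and the 48 h arrays cleared those at 24 h. The changes were 0.41 ± 0.09 (adjusted p = 0.00679), 0.99 ± 0.09 (adjusted p = 1.76e-07) and 1.17 ± 0.09 (adjusted p = 9.35e-09) at 24, 48 and 72 h. Its 24 h call and that of SV2A held in every alternative other than a required change of at least 1.

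UNC13A, Munc13-1, the main priming factor of brain synapses, lagged behind. It read 44.3, 52.4 and 48.4 at 0 h, 46.2, 55.2 and 56.3 at 8 h, 46.3, 46.8 and 56.7 at 24 h, 76.1, 82.5 and 69.6 at 48 h and 115.7, 138.5 and 104.4 at 72 h. Arrays up to 24 h overlapped, and each of the next 2 times stood clear of the one before. UNC13A rose by 0.52 ± 0.12 (adjusted p = 0.00245) at 48 h and 1.07 ± 0.12 (adjusted p = 9.58e-07) at 72 h, and its other probe set by 0.90 at 72 h.

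RIMS2, a RIM protein linking RAB3 on the vesicle to the active zone, gave 24.6, 20 and 19.7 at 0 h, 27, 31.7 and 32.5 at 8 h, 33.6, 36.7 and 29.6 at 24 h, 41.5, 52.4 and 48 at 48 h and 71.4, 74 and 42.8 at 72 h. All later arrays were above the 3 at 0 h, and at 72 h replicate 3 lay well under the other arrays of that time. RIMS2 rose by 0.76 ± 0.16 (adjusted p = 0.000697) and 1.05 ± 0.16 (adjusted p = 1.69e-05) at 48 and 72 h, with 0.40 ± 0.16 (adjusted p = 0.101) at 24 h. The other probe set rose by 0.68 at 72 h.

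PCLO, piccolo, one of the giant scaffold proteins, gave 23.3, 31.3 and 47.8 at 0 h, 31.5, 36.7 and 40.1 at 8 h, 48.7, 58.2 and 62 at 24 h, 49.8, 65 and 85.1 at 48 h and 78.6, 79.3 and 95.4 at 72 h. In each of the later times replicate 3 was the highest array, as it was at 0 h. PCLO rose by 0.55 ± 0.17 (adjusted p = 0.044), 0.73 ± 0.17 (adjusted p = 0.00255) and 1.03 ± 0.17 (adjusted p = 7.71e-05) at 24, 48 and 72 h. The 24 h call was lost without 0 h replicates 1 or 2, 8 h replicate 2, 24 h replicates 1, 2 or 3, 48 h replicate 2 or 72 h replicates 1 or 2 (adjusted p = 0.0511 to 0.192). BSN, bassoon, its companion scaffold, was dim, with a mean of 15 ± 4.02 at 0 h, below the filter, and 35.5 ± 10.7 at 72 h (SD, n = 3). It rose by 0.72 ± 0.19 (adjusted p = 0.00412) at 72 h, all 3 arrays lying above those at 0 h.

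**Figure D2:**
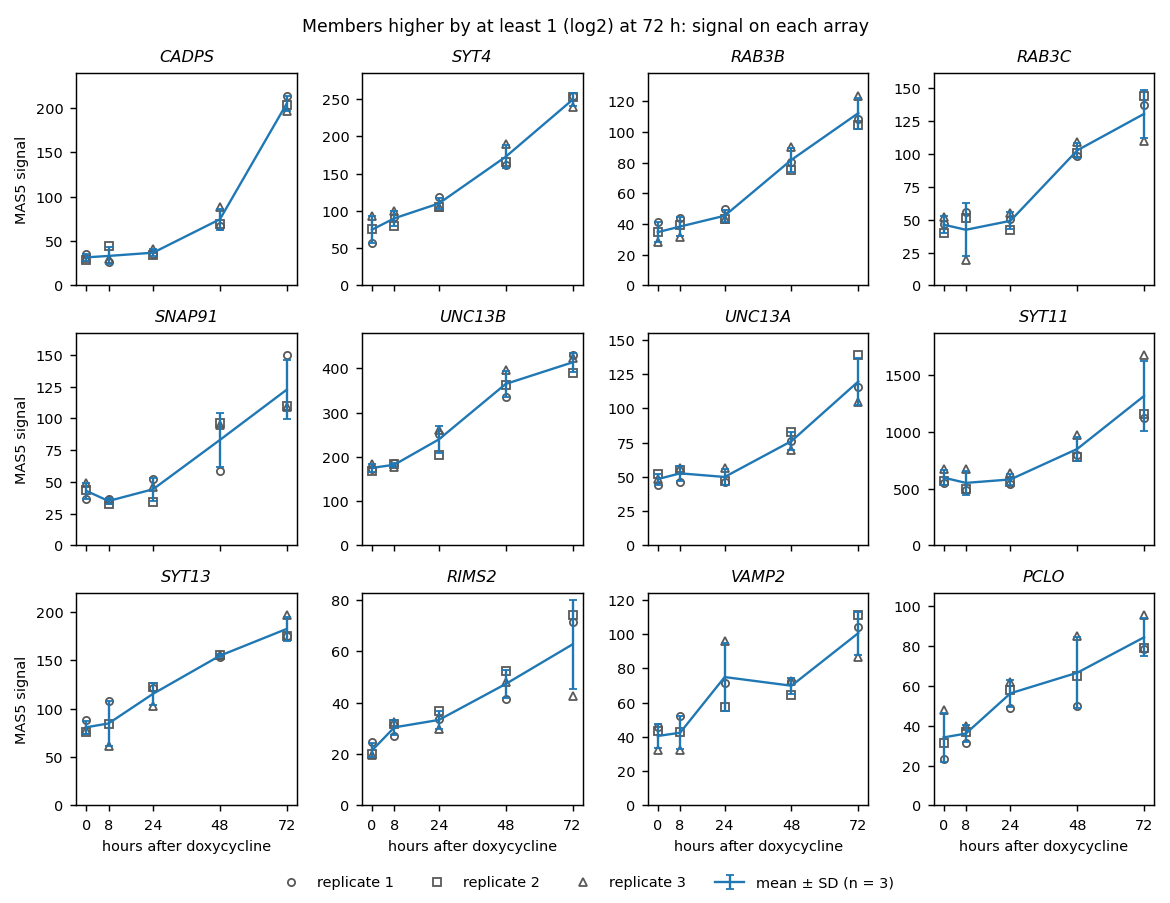
MAS5 signal on each of the 15 arrays against hours after doxycycline for the 12 members that rose by at least 1 (log2) at 72 h. Open symbols are single arrays by replicate number, and the line joins means with SD bars (n = 3), each panel having its own linear axis from 0. In every panel the 72 h arrays lie above all 0 h arrays, CADPS shows its greatest step between 48 and 72 h, and RIMS2 and SNAP91 spread widely at 72 h.

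The 3 endocytosis members went 3 ways, with 1 higher and 1 lower at 72 h, beside 32.8% and 22.7% of all genes. SNAP91, AP180, the neuronal clathrin assembly protein, read 36.5, 43.6 and 48.8 at 0 h, 36.9, 32.4 and 35.7 at 8 h, 52.2, 34.5 and 46.1 at 24 h, 58.3, 96.1 and 94.9 at 48 h and 149.6, 109.5 and 108.9 at 72 h. Replicate 1 was the lowest array at 48 h and the highest at 72 h, yet both times were above 0 h without overlap. SNAP91 rose by 0.73 ± 0.17 (adjusted p = 0.00179) at 48 h and 1.23 ± 0.17 (adjusted p = 6.88e-06) at 72 h. AMPH, amphiphysin, which bends membrane and recruits dynamin, fell at 72 h, with a change of -0.39 ± 0.09 (adjusted p = 0.00124), from a mean of 264 ± 24.9 to 197 ± 7.01 (SD, n = 3), after -0.01 ± 0.09 (adjusted p = 0.957) at 48 h. The fall from 48 to 72 h, -0.38 ± 0.09 (adjusted p = 0.0102), was lost without 48 h replicate 2 (adjusted p = 0.0675). DNM1, dynamin-1, the GTPase that cuts vesicles free, changed by 0.45 (95% interval 0.02 to 0.88, adjusted p = 0.0694) at 72 h and was called at no time. Its arrays at 24 h read 106.1, 111.2 and 230.1, replicate 3 standing far above the others.

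**Figure D3:**
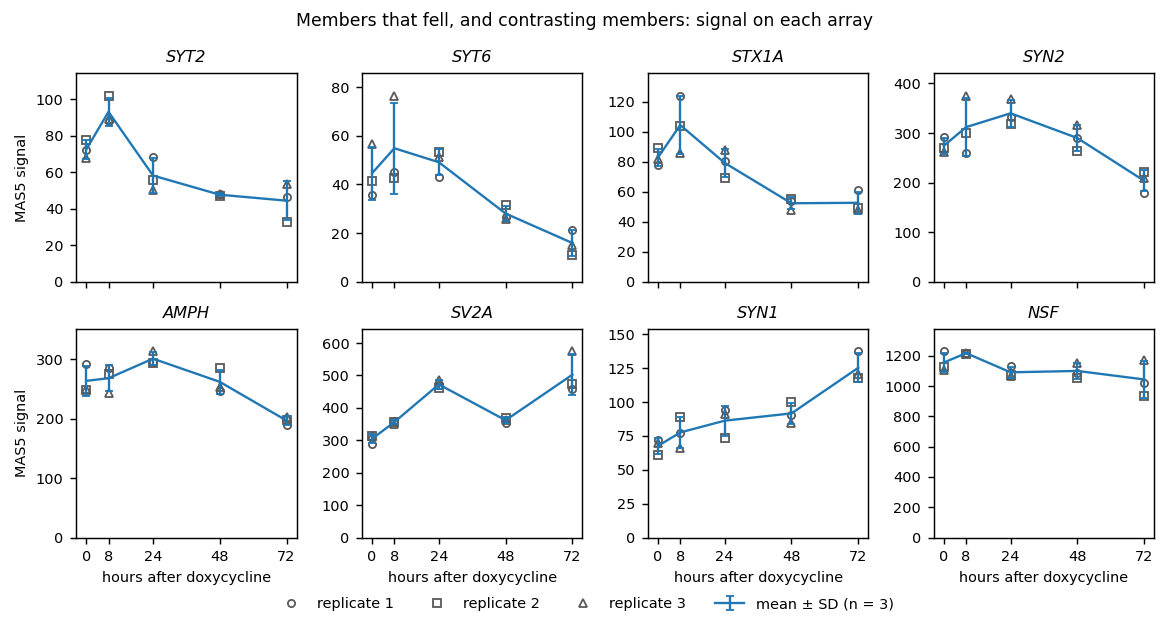
MAS5 signal on each of the 15 arrays against hours after doxycycline for the 5 members that fell at 72 h (SYT2, SYT6, STX1A, SYN2 and AMPH) and for SV2A, SYN1 and NSF. Open symbols are single arrays by replicate number and the line joins means with SD bars (n = 3), each panel on its own linear axis from 0. SYT2, SYT6 and STX1A peak at 8 h and are below the 0 h arrays from 48 h, SYN2 and AMPH decline from 24 h and are below the 0 h arrays at 72 h alone, SV2A dips at 48 h, and NSF stays between 935.2 and 1228.8.

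Gene by gene, 18 members had further probe sets past the filter. Of the 14 of these that were called at 72 h, 9 had another probe set called the same way and none had one called the opposite way. Of all 65 member probe sets past the filter, tested singly, 33 rose and 7 fell at 72 h, against 27.1% and 19.3% of 27307 probe sets. At 48 h 7 of 13 called members had another probe set called the same way. At 24 h this was so for none of 4. How often the probe sets of a gene were called alike among all genes was not counted, so these counts have no background beside them. At 72 h no other probe set of SYT1, SYT13, SYN1, SNAP25 or RAB3D past the filter was called, although the brightest was. RAB3C and NSF each had a probe set of the opposite sign, which was not called. The SYN2 probe sets disagreed on the course before 72 h. The cause of these differences was not tested.

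**Figure D4:**
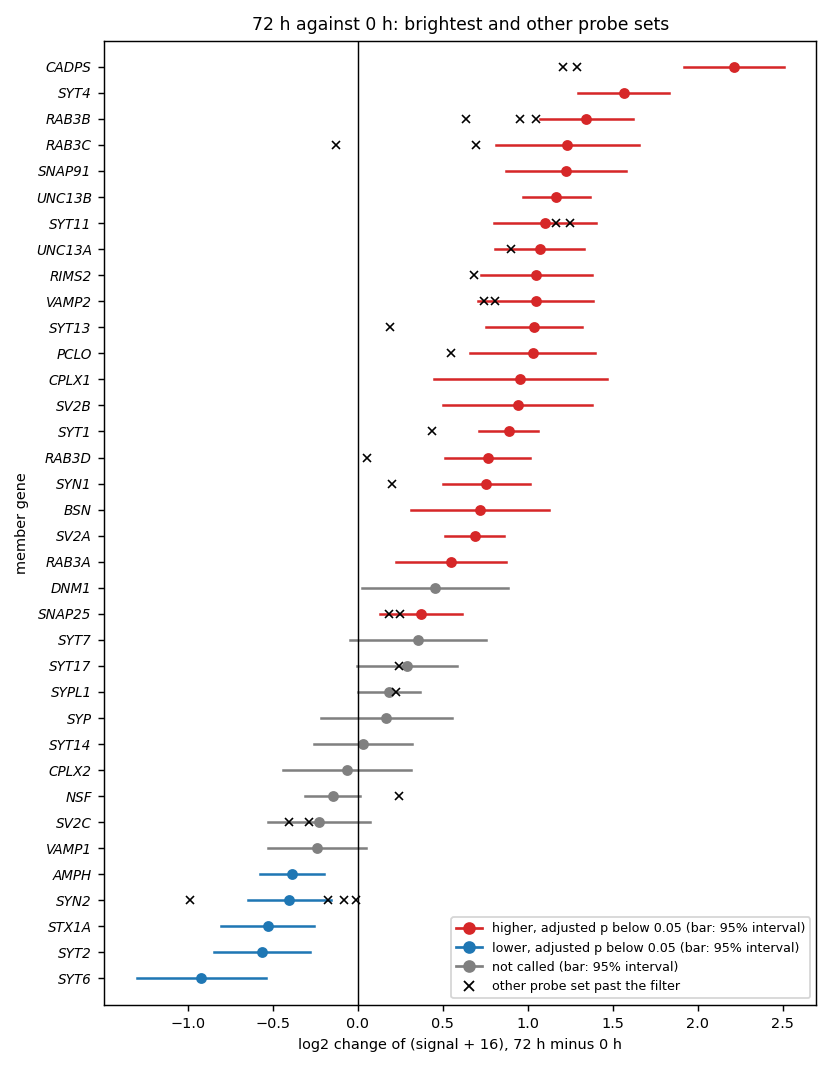
Log2 change at 72 h against 0 h for the 36 tested members, ordered by size, with dots for the brightest probe set and bars for its 95% interval (limma, 3 arrays per time). Red dots rose, blue dots fell, grey dots were not called, and crosses are the gene's other probe sets past the filter. The dots run from -0.92 (SYT6) to 2.21 (CADPS), and crosses lie near 0 for SYT13, RAB3C and RAB3D although their dots are to the right.

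The 7 members below the filter were SYT3, SYT5, SYT9, SYT12, SYN3, RIMS1 and CADPS2, and their levels cannot be followed on these arrays. RIMS1 was at 14 or less and CADPS2 at 9.5 or less on every array. Tested without the filter, SYN3 alone of the 7 passed the threshold against 0 h, at 72 h, with a log2 change of 0.79 (adjusted p = 0.00114) and mean signals of 6.7 at 0 h and 23.3 at 72 h. The 9 tested members called at none of the 4 times were SYT7, SYT14, SYT17, SV2C, SYP, VAMP1, CPLX2, NSF and DNM1.

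Genes around these members were counted in further lists, to be read against the shares of all genes called higher and lower, 7.74% and 5.72% at 24 h, 26.3% and 17.7% at 48 h and 32.8% and 22.7% at 72 h. Of 19 other active zone genes 15 were tested, and 7 (46.7%) rose and 3 (20.0%) fell at 72 h, after 2 and 2 at 24 h and 8 and 3 at 48 h. The risers were led by RIMBP2 (2.11 ± 0.12, adjusted p = 7.52e-11), which links RIM to calcium channels, ERC2 (1.74 ± 0.17, adjusted p = 1.39e-07), a scaffold that binds RIM and piccolo, and PPFIA4 (0.99 ± 0.24, adjusted p = 0.0018), a liprin. LIN7C (-0.79 ± 0.13, adjusted p = 6.41e-05), LIN7A (-0.71 ± 0.13, adjusted p = 0.000158) and PPFIA1 (-0.32 ± 0.08, adjusted p = 0.00372) fell. Among 23 tested of 38 SNARE partners and release regulators 7 rose and 3 fell at both 48 and 72 h, and 1 rose at 24 h. At 72 h these shares, 30.4% and 13.0%, were below those of all genes. DOC2A (1.04 ± 0.17, adjusted p = 6.73e-05), a calcium sensor of spontaneous release, STX6 (0.95 ± 0.11, adjusted p = 6.21e-07), a syntaxin of the trans-Golgi network, and STXBP5 (0.59 ± 0.14, adjusted p = 0.00154), tomosyn, were highest, and SNAP23 (-1.35 ± 0.08, adjusted p = 2.9e-10), the SNAP-25 relative of non-neuronal cells, SYTL4 (-0.86 ± 0.13, adjusted p = 2.13e-05), granuphilin, and NAPA (-0.44 ± 0.08, adjusted p = 0.000108), the NSF adaptor, fell.

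Of 25 other vesicle membrane proteins and transporters 16 were tested, with 8 (50%) up and 2 (12.5%) down at 72 h, 3 and 2 at 48 h and 0 and 1 at 24 h. SYNGR2 (1.52 ± 0.12, adjusted p = 7.59e-09), a synaptogyrin of non-neuronal cells, SCAMP1 (0.58 ± 0.07, adjusted p = 9.17e-07) and SCAMP5 (0.58 ± 0.15, adjusted p = 0.00314), carrier membrane proteins, rose most. SYNGR4 (-1.30 ± 0.25, adjusted p = 0.000257) and SLC18A3 (-0.96 ± 0.17, adjusted p = 0.000131), the vesicular acetylcholine transporter, fell. In endocytosis and recycling 27 of 31 genes were tested, and 12 (44.4%) rose and 7 (25.9%) fell at 72 h, 5 and 3 at 48 h and 0 and 1 at 24 h. BIN1 (1.16 ± 0.13, adjusted p = 9.1e-07), the amphiphysin-2 gene, DNM3 (0.97 ± 0.14, adjusted p = 8.91e-06), dynamin-3, and FCHO1 (0.80 ± 0.17, adjusted p = 0.000727) rose, in a list where CLTB (-0.59 ± 0.11, adjusted p = 0.000203), a clathrin light chain, ITSN1 (-0.51 ± 0.16, adjusted p = 0.0106) and SYNJ2 (-0.47 ± 0.15, adjusted p = 0.0144), a phosphoinositide phosphatase, fell.

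Dense-core granule genes were tested for 11 of 17. The counts higher and lower were 1 and 3 at 24 h, 7 and 3 at 48 h, and 7 (63.6%) and 1 (9.09%) at 72 h. SCG2 (1.70 ± 0.21, adjusted p = 1.83e-06), secretogranin II, ADCYAP1 (1.18 ± 0.16, adjusted p = 4.77e-06), the neuropeptide PACAP, and PTPRN2 (1.18 ± 0.18, adjusted p = 2.5e-05), a granule membrane protein, rose most at 72 h, and GAL (-0.73 ± 0.21, adjusted p = 0.0063), galanin, fell. The medians at 72 h were 0.42 for the active zone list, 0.10 for the SNARE partners, 0.22 for the vesicle membrane list, 0.12 for the endocytosis list and 0.38 for the granule list, beside 0.70 for the members and 0.10 for all genes.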

How the data were processed

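Total RNA of 15 samples was hybridised to Affymetrix U133 Plus 2.0 arrays, and the authors deposited 1 MAS5 signal per probe set, an intensity on a linear scale made with GCOS and MAS5 per the submitters' processing notes, whose versions are not given in the sources used here. The 2% trimmed mean was 100.01 on every array. Precision is limited by the number of arrays. The 43 members and the gene lists were chosen with earlier results of these data known.

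Of 54675 probe sets 62 controls were left out. Gene names came from the platform annotation, updated through gene identifiers against RefSeq. 41091 probe sets named 1 gene (41037 matched), 1801 several and 11721 none. Log2(signal + 16) was fitted for all 15 arrays with 1 mean per time in limma 3.58.1 (R 4.3.3), after keeping the 27307 probe sets at or above the median of mean log2 values (a signal of 16.6) and the brightest per gene, 11774 genes. Variances were moderated with an intensity trend, and Benjamini-Hochberg adjustment ran over all genes tested. Signals on every array are printed for members with a call at 8 or 24 h, a call of at least 1 (log2) at 48 or 72 h, or opposite calls within a family, and for each list at most 3 members per direction with the greatest called change at 72 h. The procedure was tested on simulated data with 50 genes changed at 72 h by each of 4 log2 sizes. It called 6 of 50 at 0.25, 28 at 0.5, 46 at 1 and 50 at 2, with 6 false calls. Small changes were thus often missed there. Far fewer genes changed in the simulation than were called in these data, so recovery here may differ. Tables and plots used Python 3.11.15, pandas 2.3.3 and matplotlib 3.10.9.

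Alternatives were the pseudocount, filter, normalisation, choice of probe set, threshold, pairing by replicate number, array weights and each array left out in turn, and a fit on replicates 1 and 2 alone and the block with centring were chosen after seeing the data. Where all probe sets were tested singly, the one with the smallest adjusted p stood for each gene. A discordant probe set could therefore not end a call there. Arrays with the same replicate number had residual correlations of -0.08 to 0.35 (median 0.12, 30 pairs of arrays) and arrays with different numbers -0.28 to 0.17 (median -0.08, 60 pairs). The labels do not say that equal numbers mark a shared culture or day. All 3 same-number pairs exceeded 0.1 for 0 against 48 h and for 48 against 72 h, so the blocked value is given beside a member where it changes a call there. Some promoter windows are not reported here.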

Additional observations from a re-analysis of the deposited data

How the results depend on the processing

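Of 56 called member changes against 0 h, 43 kept their call in all alternatives in which the gene was tested, other than a required change of at least 1. One of these alternatives took the gene's probe set with the smallest adjusted p. No change called in either fit changed direction. Changes called in neither fit did change sign, 9 of 144 under median centring and 15 of 144 with replicates 1 and 2 alone. The 9 members called at 24 h became 4 with quantile normalisation, 4 with median centring, 5 without the filter and 0 at a change of at least 1, and ran from 4 to 10 with 1 array left out. The 21 called at 48 h became 8 among the brightest 25% of probe sets, where 14 members were tested, and 1 at a change of at least 1. The 26 at 72 h became 10 and 12 in these same settings. The 4 called from 8 to 24 h became 2 with median centring, without the filter, among the brightest 25% and with the 2 times fitted alone, 1 with replicates 1 and 2 alone (chosen after seeing the data) and 0 at a change of at least 1, and ran from 1 to 4 with 1 array left out. The 15 from 24 to 48 h became 7 and 0, and the 8 from 48 to 72 h became 5 and 1, among the brightest 25% and at a change of at least 1. With 1 array left out the latter 2 counts ran from 10 to 16 and from 4 to 9. The 27 over the time course became 11 among the brightest 25%. Fewer members were tested there, and for the other settings the cause was not tested. With 1 array left out the counts at 48 and 72 h ran from 18 to 22 and from 25 to 28. With replicate number as a block, the counts were 9 at 24 h, 22 at 48 h (SYT6 added, -0.45, adjusted p = 0.0416) and 26 at 72 h, so the pairing moved 1 of 144 member changes against 0 h. Dim genes, SYN3 and SV2B among them, lie near the filter, where changes on the log2(signal + 16) scale are understated.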
